A study of Homo sapiens with 29 samples.

Results

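The 10 genes described here encode parts of the machinery by which skeletal muscle turns a membrane signal into calcium release and then clears the calcium: CACNA1S, RYR1, TRDN, JPH1, JSRP1, CASQ1, CASQ2, ATP2A1, ATP2A2 and SLN. They were found on the arrays through the RefSeq accession of each probe. All 10 genes had a probe that could be tested, 13 probes in all, among 18398 genes with a tested probe. The cells were LHCN-M2, a line derived from human skeletal myoblasts and immortalized with telomerase and CDK4, so all groups share that background. Each culture received siRNA at 20 nM, either against ZNF148 or nontargeting. RNA was taken in growth media from subconfluent cells at 24 h and from confluent cells at 48 and 96 h, and in differentiation media at 48 and 96 h. The 10 groups had 3 arrays each, labelled as biological replicates, but nontargeting siRNA in growth media had only 2 at 96 h. Differentiation media replaced the growth media 2 days after transfection in the study's general transfection protocol, but whether the hours of these arrays count from transfection or from that change is not stated in the sources used here. The comparisons ask how the knockdown, the media and the time moved these genes. A myoblast line in culture has neither nerve input nor mature fibers, and the array reads RNA rather than protein or calcium flux. In these bulk samples, more cells of a type and more RNA per cell cannot be told apart.

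In skeletal muscle an action potential enters the fiber through the transverse tubules, where the voltage sensor (CACNA1S) touches the release channel of the sarcoplasmic reticulum (RYR1) and opens it. Junctophilin holds both membranes together, and triadin ties calsequestrin to the release channel. Calsequestrin stores calcium inside the reticulum, and the SERCA pumps return it. Sarcolipin is a small membrane peptide that lowers pump activity. Most of the genes are silent or low in proliferating myoblasts and are known to come on as the cells fuse into myotubes. Here ATP2A2 and JSRP1 were already well above background on every nontargeting array at 24 h, with means of 9.77 and 11.69.

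RefSeq promoter sequence was at hand for 7 of the 10 genes, in 9 entries. It is shown for the pump gene ATP2A2, for CASQ2, for the voltage sensor and for triadin, since these stand for different roles and their signals moved together. Each run holds the 250 bases before the annotated start, read 5′ to 3′ on the gene's strand (GRCh38.p14). Capitals mark matches to the E-box CANNTG, the motif of MyoD-family factors, and to the MEF2 motif, on both strands. In ATP2A2, 2 overlapping MEF2 matches form 1 run.
ATP2A2, chr12:110280366-110280615, plus strand: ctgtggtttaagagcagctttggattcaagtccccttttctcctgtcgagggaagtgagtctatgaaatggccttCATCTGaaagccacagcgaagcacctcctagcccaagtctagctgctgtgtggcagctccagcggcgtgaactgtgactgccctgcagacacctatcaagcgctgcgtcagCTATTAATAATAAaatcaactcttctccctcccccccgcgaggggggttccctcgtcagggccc
CASQ2, chr1:115768715-115768964, minus strand: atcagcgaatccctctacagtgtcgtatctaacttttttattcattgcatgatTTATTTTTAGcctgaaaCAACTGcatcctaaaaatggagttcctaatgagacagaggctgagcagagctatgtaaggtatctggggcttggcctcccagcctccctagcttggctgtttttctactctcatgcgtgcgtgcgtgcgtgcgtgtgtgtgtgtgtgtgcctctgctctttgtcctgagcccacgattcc
CACNA1S, chr1:201112427-201112676, minus strand: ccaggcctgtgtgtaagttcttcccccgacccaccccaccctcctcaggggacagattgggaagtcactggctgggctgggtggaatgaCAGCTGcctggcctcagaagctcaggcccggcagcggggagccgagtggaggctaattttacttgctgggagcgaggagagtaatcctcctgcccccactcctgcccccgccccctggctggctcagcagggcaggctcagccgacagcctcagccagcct
TRDN, chr6:123636951-123637200, minus strand: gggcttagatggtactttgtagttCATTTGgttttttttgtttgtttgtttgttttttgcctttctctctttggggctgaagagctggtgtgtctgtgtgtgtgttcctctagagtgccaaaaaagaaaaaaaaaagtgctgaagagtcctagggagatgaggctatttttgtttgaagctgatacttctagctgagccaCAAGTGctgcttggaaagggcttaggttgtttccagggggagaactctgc
Motifs were counted over the 250 bases before the start in every entry, for these genes and for all promoters alike. CANNTG was found in 7 of the 9 promoter entries, and 61.8% of all 35116 promoters of the same length hold it. The stricter CAGCTG was found in 2 entries (ATP2A1 and CACNA1S), against 14% of all promoters, and every such match is also a CANNTG match. A MEF2 match was found in 2 entries (ATP2A2 and CASQ2), against 2.8%. GGGAGGG, a G-rich run of the kind that ZNF148 is known to bind, was found in 4 entries of 3 genes (ATP2A1, ATP2A2 and CASQ1), against 24.7%. A match describes the letters only.

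ZNF148 itself fell in every comparison of the siRNAs, by 1.53 on the log2 scale at 24 h, by 2.07 and 2.31 at 48 and 96 h in growth media, and by 2.34 and 2.74 in differentiation media (largest adjusted p = 4.3e-08). Signals are log2 values after quantile normalization over all 29 arrays, and a gene was called higher or lower at an adjusted p under 0.05 with a change of more than 2-fold. The share of probes well above background ran from 41.5% to 56.5% over the arrays. The arrays at 24 h had a slide and a scan of their own, so their levels and those of later hours cannot be told apart from slide. Levels of different probes are not compared. The myoblast markers MYOD1 and DES were well above background on all 29 arrays, with group means from 15.64 to 17.32 and from 13.86 to 18.47. PAX7 was near background. Of the 7 myoblast markers, ZNF148 siRNA had 1 called higher at 24 h, 4 higher and 1 lower at 48 h in growth media, 3 higher and 1 lower at 96 h, and 2 higher at either hour in differentiation media. The lower gene was MYF5, with group means of 12.65 and 11.02 at 48 h and of 12.97 and 11.17 at 96 h, while NCAM1 and CDH15 were higher at both. Of the 8 myotube markers, ZNF148 siRNA had 7 called higher in growth media at both later hours and in differentiation media at 48 h, and 3 at 96 h there. Among 7 tested cardiomyocyte markers, TNNI3, MYH6 and NPPA were called higher in each of these 4 comparisons, and GATA4 at 96 h in growth media as well. On the nontargeting arrays at 96 h in growth media TNNI3 was well above background on 1 array and GATA4, MYH6 and NPPA on none, and ZNF148 siRNA had MYH6 at least 40.3-fold and NPPA at least 41-fold higher there. The summed level of the list lay between 15.93 and 15.94 with nontargeting siRNA and between 15.98 and 16.10 with ZNF148 siRNA, a sum carried by NKX2-5 (group means of 15.93 and 16.00), which was not called. Of 7 fibroblast markers 1 was higher and 2 were lower at 48 and at 96 h in growth media, with summed levels of 17.27 to 17.43 with nontargeting siRNA and of 17.09 to 17.16 with ZNF148 siRNA at 96 h. Of 6 tested smooth muscle markers, which share DES with the myoblast list, growth media gave 3 higher and 1 lower at 48 h, then 4 and 1 at 96 h. The summed level at 96 h was 16.54 to 16.72 with nontargeting siRNA and 18.45 to 18.56 with ZNF148 siRNA. That sum was carried by DES (group means of 16.48 and 18.47), while ACTG2 had group means of 13.21 and 11.88. MYOCD was well above background on 1 array of the 3 with ZNF148 siRNA at either time. The part of these other cell type markers in the results below was not tested.

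One array stood apart and bears on every result that follows. On replicate 1 of the nontargeting cells grown for 48 h in growth media, 9 of the 10 genes lay above both other nontargeting arrays of that group. All 10 lay below every ZNF148 siRNA array. For SLN the 3 nontargeting arrays gave 11.18, 2.07 and 2.05, and the ZNF148 siRNA arrays 12.91, 12.96 and 13.14. For CASQ2 they gave 11.47, 2.71 and 2.79 against 13.14, 13.10 and 13.22. On the linear scale this array lay between 28.2% and 31% of the way from the other nontargeting arrays to the ZNF148 siRNA mean for 9 genes, and at -0.732% for CASQ1, which was not well above background on any nontargeting array there. The same share was 29.4% for MYOG and 53.1% for ACTA1. The ZNF148 probe read 8.51 on this array, 8.85 and 9.19 on the other nontargeting arrays and 6.78 on average with ZNF148 siRNA. This lone array also widened the spread shared by all comparisons. Results for the 10 genes are therefore given without it too wherever that changed a call. Counts for the cell type markers above and for the lists of other calcium handling genes below are from all 29 arrays, so that spread enters them.

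**Figure D1:**
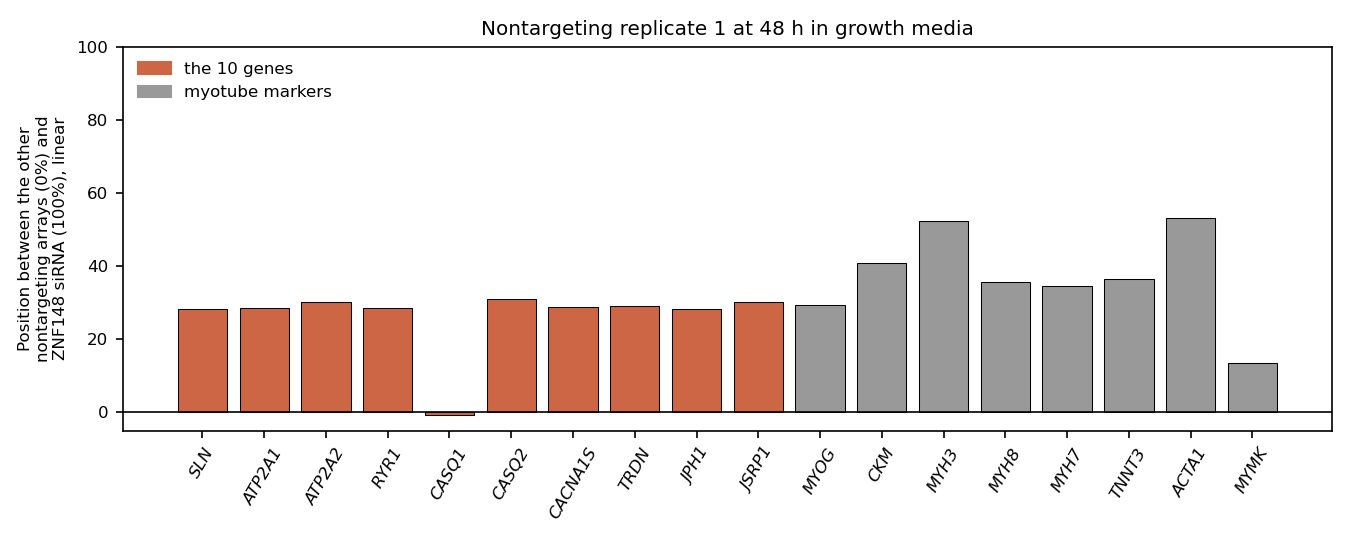
Position of the nontargeting array that stood apart (replicate 1, 48 h, growth media) on a linear scale (y axis) where 0% is the mean of the other nontargeting arrays of that group and 100% the ZNF148 siRNA mean, for the 10 genes and 8 myotube markers (x axis). Of the 10 genes 9 sit between 28.2% and 31%, CASQ1 sits at -0.732%, and the myotube markers sit between 13.5% and 53.1%.

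**Figure D2:**
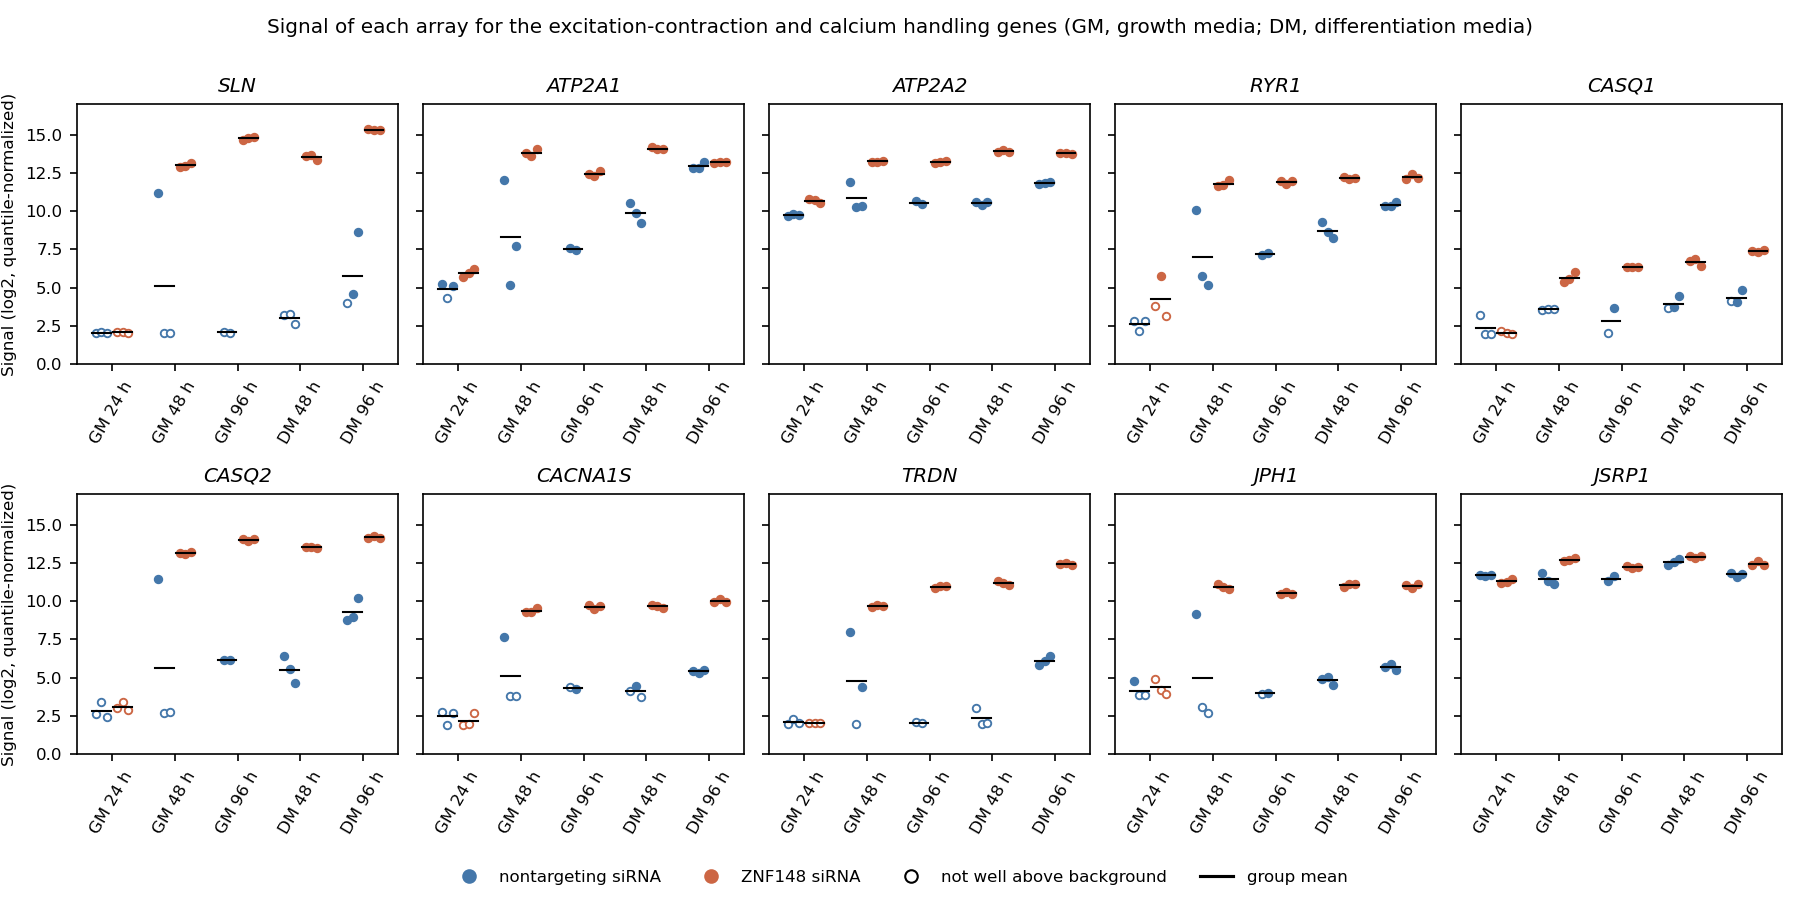
Signal of every array (y axis, log2) for each of the 10 genes in the 10 groups (x axis), with open points where the probe was not well above background and bars at group means. The ZNF148 siRNA arrays at 48 and 96 h sit high and close together, 1 nontargeting array at 48 h in growth media sits between them and its own group in every gene but CASQ1, and ATP2A1 is the gene in which nontargeting arrays at 96 h in differentiation media reach the ZNF148 siRNA level.

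After 24 h none of the 10 genes was called with ZNF148 siRNA, where 2.46% of all genes were called higher and 3.08% lower. The median change of the 10 genes was 0.11 on the log2 scale, beside -7e-04 for all genes. Of the 10 genes, 6 were not well above background on any nontargeting array at 24 h, so only a bound on their level is known there. ATP2A2 gave 9.70, 9.83 and 9.78 on the nontargeting arrays and 10.77, 10.70 and 10.55 with ZNF148 siRNA, groups that did not overlap. Its difference of 0.91 (SE 0.247, adjusted p = 0.0091) passed the test but not the 2-fold limit. ATP2A1 differed by 1.04 (adjusted p = 0.501). RYR1 differed by 1.62 (adjusted p = 0.16), and of its 6 arrays 1 was well above background. Leaving out the nontargeting array that stood apart, RYR1 became the 1 gene called (adjusted p = 0.00558, with 2.7% of all genes called higher and 3.17% lower). With ZNF148 siRNA RYR1 read 3.80, 5.77 and 3.14, of which only 5.77 was well above background. No nontargeting array at 24 h was, so the size of this change is not measured.

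By 48 h in growth media all 10 genes were higher with ZNF148 siRNA (11.7% of all genes were higher and 12.2% lower). The median of the 10 changes was 4.85, beside -0.05 for all genes. When the array that stood apart was left out the 10 genes were still higher and their median was 6.41, with 12.9% of all genes higher and 14.1% lower. In a fit of the 6 arrays of this comparison alone, 5 were called. At 96 h in growth media 9 were higher (12.3% of all genes were higher and 12.4% lower), with a median of 5.12. The exception was JSRP1, which passed the test but not the 2-fold limit. In differentiation media 9 were higher at 48 h (15.1% of all genes higher and 17.3% lower, median 4.89) and 7 at 96 h (10.5% and 12.8%, median 3.82), or 9 and 8 without the array that stood apart (15.2% and 10.7% of all genes). None was called lower in any of these comparisons.

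**Figure D3:**
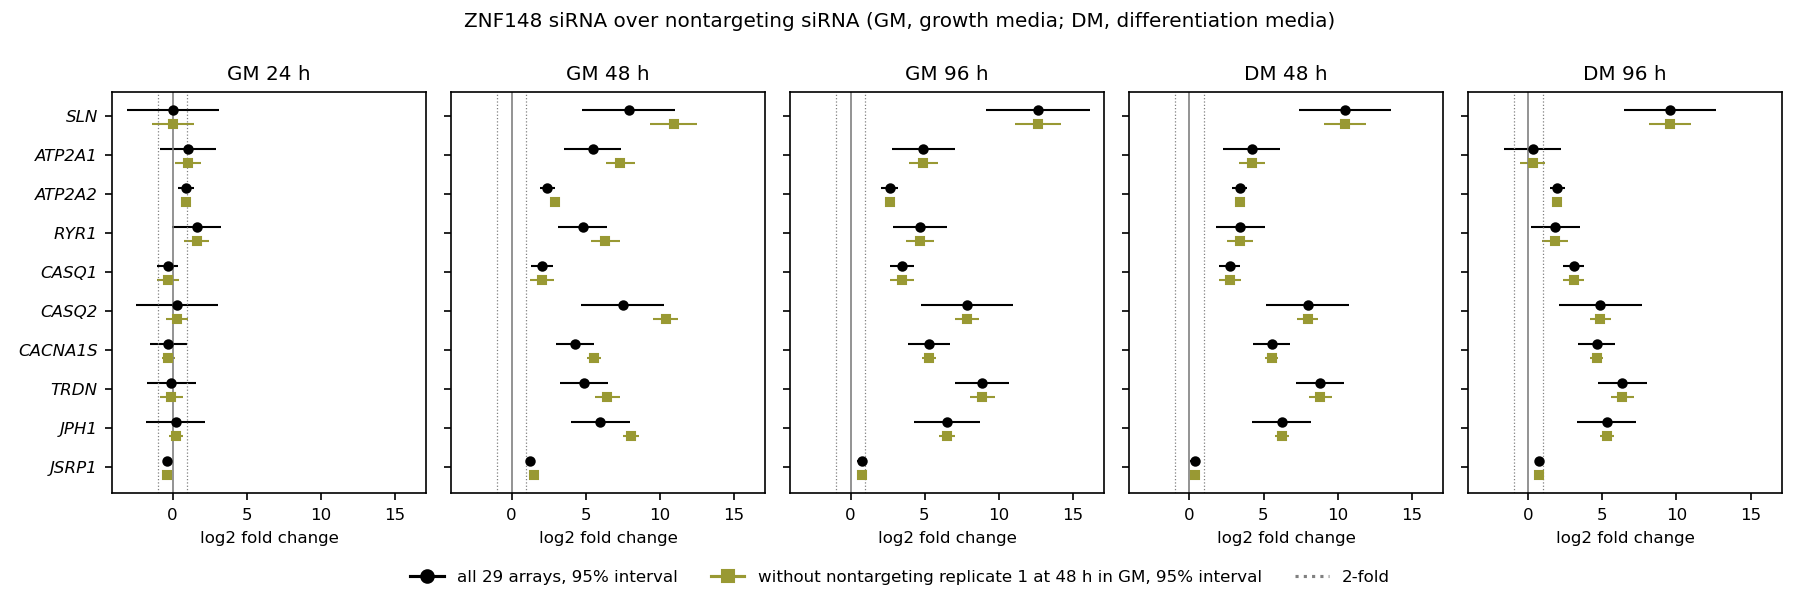
Log2 fold change of each gene with ZNF148 siRNA (x axis) in the 5 comparisons, with 95% intervals from all 29 arrays (circles) and without the nontargeting array that stood apart (squares). Intervals at 24 h cross 0 for 8 genes with all arrays, lie above 0 for all 10 genes at 48 h in growth media, and cross 0 for ATP2A1 at 96 h in differentiation media.

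The voltage sensor CACNA1S, the pore-forming subunit of the L-type channel of the transverse tubule, was well above background on 6 of the 14 nontargeting arrays. At 96 h in growth media it read 4.42 and 4.24 with nontargeting siRNA and 9.75, 9.49 and 9.68 with ZNF148 siRNA. The rise was 5.31 on the log2 scale (SE 0.68, adjusted p = 1.19e-06). It rose by 4.29 at 48 h in growth media, or at least 32.4-fold without the array that stood apart. In differentiation media the rises were 5.55 at 48 h and 4.60 at 96 h. Its mean with ZNF148 siRNA ran from 9.39 to 10.01 over the 4 groups at 48 and 96 h.

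RYR1, the calcium release channel, rose by 4.80 (SE 0.789) and 4.69 (SE 0.882) at 48 and 96 h in growth media. It rose by 3.43 at 48 h in differentiation media. At 96 h in differentiation media its nontargeting arrays read 10.32, 10.31 and 10.61 and its ZNF148 siRNA arrays 12.12, 12.42 and 12.16. These groups did not overlap, and the difference of 1.82 missed the threshold (adjusted p = 0.0634). It passed without the array that stood apart (adjusted p = 0.000973).

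Triadin (TRDN), which ties calsequestrin to the release channel, was not well above background on any nontargeting array at 96 h in growth media or at 48 h in differentiation media. There it read 2.10 and 2.02, then 3.05, 2.01 and 2.07, while ZNF148 siRNA gave 10.89, 10.99 and 11.00, then 11.33, 11.21 and 11.06. TRDN was thus at least 115-fold higher at 96 h in growth media (adjusted p = 3.31e-08) and at least 151-fold higher at 48 h in differentiation media (adjusted p = 2.86e-09). JPH1, the junctophilin that spans the gap between tubule and reticulum, rose by 5.98 and 6.52 in growth media and by 6.23 and 5.30 in differentiation media. Its ZNF148 siRNA arrays lay between 10.45 and 11.15 in all 4 groups.

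JSRP1, a junctional protein that binds the voltage sensor and calsequestrin, was measured from the start. Its probe was well above background on every array, with 11.72, 11.63 and 11.71 already at 24 h with nontargeting siRNA. It was higher with ZNF148 siRNA by 1.28 at 48 h in growth media (SE 0.14, adjusted p = 1.23e-07). The other differences were 0.76 at 96 h in growth media, 0.34 and 0.70 in differentiation media and -0.38 at 24 h, all under 2-fold. At 24 h its groups did not overlap, with 11.20, 11.25 and 11.46 under ZNF148 siRNA.

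Both calsequestrins, the calcium buffers of the reticulum, rose in the 4 comparisons after 24 h. CASQ1, the form of fast fibers, was well above background on 1 of the 8 nontargeting arrays in growth media. It rose by 2.06 at 48 h (at least 2.75-fold), by 3.49 at 96 h in growth media and by 2.72 and 3.04 in differentiation media. With normexp background correction the 48 h difference in growth media was 0.59 and fell under the 2-fold limit. CASQ2, the form of heart and slow fibers, read 6.13 and 6.19 at 96 h in growth media and 14.07, 13.96 and 14.06 with ZNF148 siRNA, a rise of 7.87 (SE 1.49, adjusted p = 0.000149). At 48 h in growth media it rose by 7.49, and without the array that stood apart it was at least 439-fold higher. In differentiation media the rise was 7.98 at 48 h and 4.86 at 96 h, where the nontargeting arrays read 8.77, 8.99 and 10.18.

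Of the pump genes, ATP2A2 was called at 96 h in differentiation media and ATP2A1 was not. ATP2A1, the SERCA pump of fast fibers, read 12.80, 12.81 and 13.18 there with nontargeting siRNA and 13.17, 13.24 and 13.21 with ZNF148 siRNA. These groups overlapped, and the difference was 0.28 (95% interval -1.64 to 2.20, adjusted p = 0.856). Its interval without the array that stood apart was -0.59 to 1.15. In the other comparisons after 24 h ATP2A1 rose by 5.49, 4.92 and 4.22. All 3 ATP2A1 probes went the same way, with 0.28, 0.54 and 0.51 at 96 h in differentiation media. ATP2A2, whose product is the pump of heart and slow fibers and, as another splice form, of most cells, read 11.75, 11.85 and 11.90 against 13.82, 13.77 and 13.74 at the same time. Its rise was 1.94 (SE 0.247, adjusted p = 9.35e-07), after 2.41 and 2.65 in growth media and 3.38 at 48 h in differentiation media. The second ATP2A2 probe gave 2.27 where the first gave 1.94.

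Sarcolipin (SLN), the small inhibitor of the SERCA pumps, was at background on most nontargeting arrays and high with ZNF148 siRNA after 24 h. It read 2.14 and 2.03 at 96 h in growth media with nontargeting siRNA and 14.68, 14.78 and 14.81 with ZNF148 siRNA. At 48 h in differentiation media it was at least 774-fold higher (adjusted p = 3.03e-06). At 48 h in growth media the difference was 7.91 (SE 1.5, adjusted p = 0.000135), and at least 397-fold without the array that stood apart. At 96 h in differentiation media its nontargeting arrays spread from 4.01 through 4.62 to 8.63, and the ZNF148 siRNA arrays read 15.38, 15.29 and 15.29. The rise there was 9.57 (SE 1.5, adjusted p = 1.46e-05).

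At 48 and 96 h arrays of both siRNAs on the same slide gave the same direction. Over 3 slides at 48 h in growth media, 30 of 30 values of the 10 genes were above 0, and 30 of 30 at 48 h in differentiation media. On the 1 slide with both siRNAs at 96 h in growth media 10 of 10 values were above 0, as were 20 of 20 over 2 slides at 96 h in differentiation media. The smallest of them was 0.06, for ATP2A1 at 96 h in differentiation media. On the slide of 24 h only 6 of 10 values were above 0, and the lowest was -0.38. The same count was not made over all genes.

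The media were also compared without knockdown. At 48 h with nontargeting siRNA, JSRP1 was higher by 1.15 (SE 0.14, adjusted p = 6.29e-07), where 7.77% of all genes were higher and 8.22% lower. TRDN was called lower there, at -2.42, with groups that overlapped. Leaving out the array that stood apart, TRDN was no longer called (-0.84, adjusted p = 0.121), while 5 genes were higher (9.14% of all genes were higher and 8.58% lower): ATP2A1 by 3.40, RYR1 by 3.26, JSRP1 by 1.36, CASQ2 and JPH1. CASQ2 and JPH1 were well above background on neither remaining growth media array, so CASQ2 was at least 2.24-fold and JPH1 at least 1.38-fold higher, the latter a bound under the 2-fold limit.

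At 96 h with nontargeting siRNA, 5 genes were higher in differentiation than in growth media (6.81% of all genes were higher and 8.25% lower). ATP2A1 read 7.61 and 7.47 in growth media and 12.80, 12.81 and 13.18 in differentiation media, a rise of 5.39 (SE 1.03, adjusted p = 0.000258). TRDN was higher by 4.06 (at least 4.01-fold), RYR1 by 3.21, CASQ1 by 1.50 and ATP2A2 by 1.28. CASQ1 was not called with normexp (0.18, adjusted p = 0.282), in a fit of the arrays of the comparison alone (adjusted p = 0.142) or by the methods' test, and RYR1 was not called with slide as a block (2.55, adjusted p = 0.0671). Without the array that stood apart 9 were higher (7.27% of all genes were higher and 8.28% lower), SLN, CASQ2, CACNA1S and JPH1 among them. Of these, SLN was well above background on neither growth media array and read 4.01, 4.62 and 8.63 in differentiation media. CACNA1S and JPH1 were well above background on 1 of the 2 growth media arrays. JSRP1 gave 0.28 with and without the array that stood apart.

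With ZNF148 siRNA 1 of the 10 genes was called between the media at each hour. CASQ1 was higher in differentiation media, with adjusted p = 0.0495 for the rise of 1.03 at 48 h and 0.0297 for that of 1.06 at 96 h. Of all genes 1.13% were higher and 2.84% lower at 48 h, and 1.45% and 4.95% at 96 h. The CASQ1 arrays read 5.37, 5.60 and 6.00 in growth media at 48 h and 6.76, 6.90 and 6.41 in differentiation media. The call at 48 h was lost under several settings, among them the authors' normalized values, and both calls with normexp (0.58 and 0.65, under 2-fold), where TRDN was called instead (1.45 and 1.34). Without the array that stood apart TRDN was called too, at 1.51 and 1.49 (1.43% of all genes higher and 2.99% lower at 48 h, and 1.73% and 5.05% at 96 h). For ATP2A1 the media differed by 0.26 (95% interval -1.66 to 2.18) at 48 h and by 0.75 (-1.17 to 2.67) at 96 h.

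**Figure D4:**
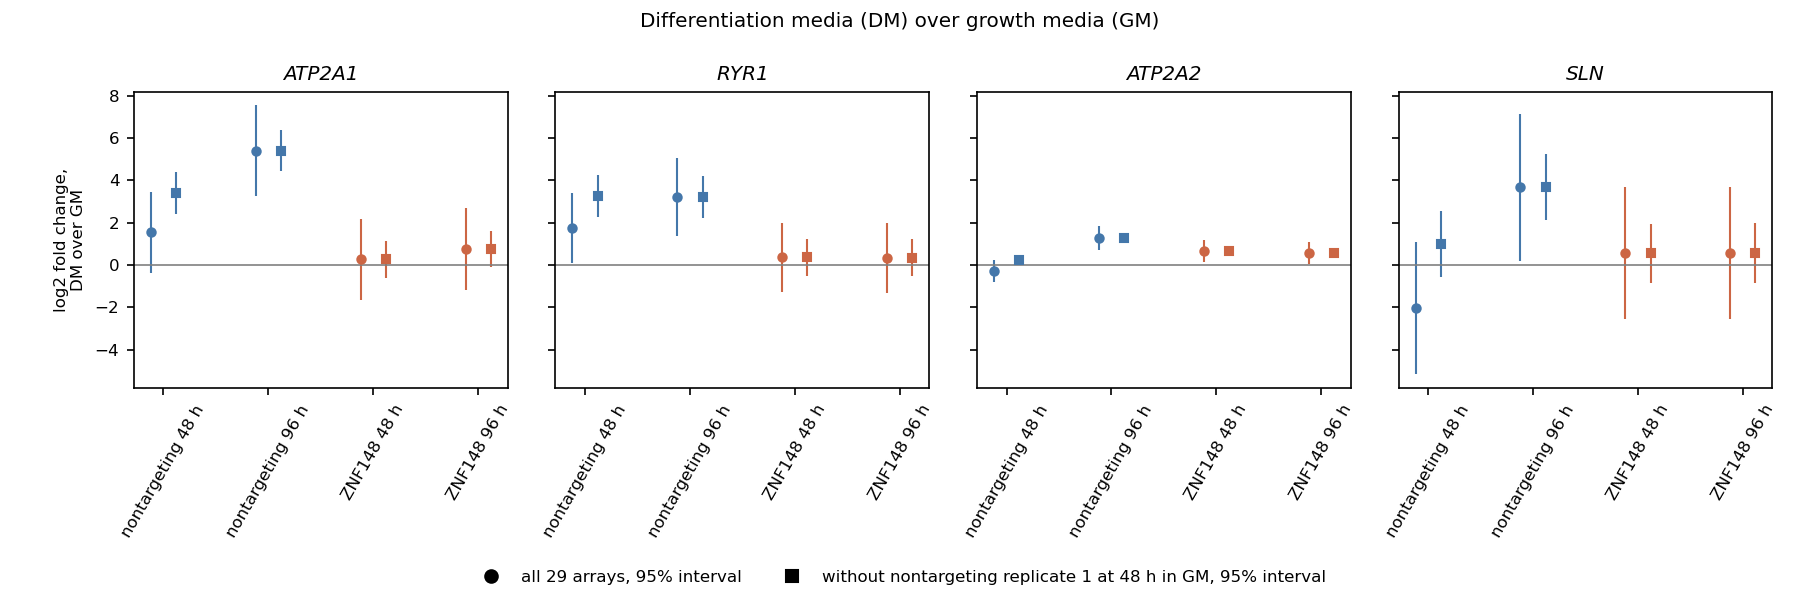
Log2 fold change of differentiation over growth media (y axis) for ATP2A1, RYR1, ATP2A2 and SLN, with nontargeting siRNA (left 2 positions of each panel) and with ZNF148 siRNA (right 2 positions), as 95% intervals from all 29 arrays (circles) and without the array that stood apart (squares). ATP2A1 reaches 5.39 at 96 h with nontargeting siRNA and 0.75 with ZNF148 siRNA.

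Time moved the genes in nontargeting cells in differentiation media. From 48 to 96 h, 4 genes were higher (5.76% of all genes were higher and 4.22% lower): CASQ2 by 3.77, TRDN by 3.74 (at least 4.46-fold), ATP2A1 by 3.06 and ATP2A2 by 1.30. SLN read 3.22, 3.29 and 2.67 at 48 h, none well above background, and 4.01, 4.62 and 8.63 at 96 h (adjusted p = 0.193). Without the array that stood apart 7 were higher (6.15% of all genes). JSRP1 differed by -0.83, under 2-fold. With ZNF148 siRNA in growth media none was called between 48 and 96 h (limma, 4.13% of all genes were higher and 1.82% lower). Only JSRP1 had an adjusted p under 0.05 there, with a difference of -0.47. For SLN the arrays gave 12.91, 12.96 and 13.14 at 48 h and 14.68, 14.78 and 14.81 at 96 h, without overlap. Its difference of 1.75 was called in a limma fit of the arrays of the comparison alone (adjusted p = 0.000474), as were those of ATP2A1 and TRDN. ATP2A1 read 13.82, 13.59 and 14.07 at 48 h and 12.46, 12.30 and 12.61 at 96 h, groups that did not overlap. Without the array that stood apart its fall of 1.37 was called (adjusted p = 0.0187, with 2.13% of all genes lower), as was a rise of TRDN by 1.26 (4.3% higher).

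Knockdown in growth media was also set against nontargeting cells in differentiation media. At 48 h 9 genes were higher with the knockdown (14.1% of all genes were higher and 14.7% lower), with a median of 4.62. JSRP1 differed by 0.13 (95% interval -0.16 to 0.42). At 96 h 7 were higher (10.3% of all genes were higher and 8.43% lower), with a median of 3.11. ATP2A1 differed by -0.47 (95% interval -2.39 to 1.45) and RYR1 by 1.48 (-0.16 to 3.13). RYR1 was called without the array that stood apart (adjusted p = 0.00594, 10.7% of all genes higher). SLN was higher by 9.01, TRDN by 4.84 and JPH1 by 4.78.

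The difference between effects was tested directly. From 24 to 48 h in growth media the effect of ZNF148 siRNA grew in all 10 genes (10.3% of all genes were higher and 10.4% lower), with 1.51 for ATP2A2 the smallest value. All 10 were called without the array that stood apart too (11.7%). SLN, CASQ2, CASQ1, CACNA1S and TRDN were well above background on none of the 6 arrays at 24 h, so the size of their difference is not measured. RYR1 was well above background there only on 1 ZNF148 siRNA array and JPH1 only on 1 nontargeting array, so the size is uncertain for these genes too. At 96 h the effect on ATP2A1 was smaller in differentiation than in growth media by 4.64 (SE 1.38, adjusted p = 0.0168), the 1 gene called (5.55% of all genes were higher and 6.93% lower). With the array that stood apart left out 6 were lower, ATP2A1, SLN, CASQ2, RYR1, TRDN and JPH1 (8.07%). On the 2 nontargeting arrays at 96 h in growth media SLN and TRDN were never well above background, and JPH1 was on 1. The size of the SLN and TRDN differences is therefore not measured, and with normexp that of TRDN turned to 0.22. The effect on TRDN at 48 h was larger in differentiation than in growth media by 3.93 (adjusted p = 0.00874, with 8.13% of all genes higher and 9.07% lower), or by 2.35 without the array that stood apart. TRDN was well above background on no nontargeting array at 48 h in differentiation media, so the size of this difference is not measured. In a limma fit of the arrays of the comparison alone it was not called (adjusted p = 0.115). The fit without the array that stood apart also called 5 genes lower, ATP2A1 by 3.14 and RYR1 by 2.90 the most (10.3%).

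For 8 of the 10 genes the 4 ZNF148 siRNA groups at 48 and 96 h were the 4 highest of the 10 groups. The share of all genes with this order was not computed. The exceptions were ATP2A1 and JSRP1. For ATP2A1 the mean of nontargeting siRNA at 96 h in differentiation media stood above that of ZNF148 siRNA at 96 h in growth media. For JSRP1 the mean of nontargeting siRNA at 48 h in differentiation media stood above both ZNF148 siRNA groups of 96 h. Those nontargeting arrays (12.38 to 12.78) overlapped the ZNF148 siRNA arrays at 96 h in differentiation media (12.35 to 12.60). The order of SLN ran from ZNF148 siRNA at 96 h in differentiation media (15.32) through 96 h in growth media (14.76) and 48 h in differentiation media (13.56) to 48 h in growth media (13.00), and no 2 neighbours among these overlapped. For JPH1 the first 3 groups overlapped in a chain. Between 3 and 7 of the 9 neighbouring pairs in each gene's order overlapped.

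Over the 10 group means the 45 pairs of these genes correlated with a Pearson r between 0.69 and 0.99, with a median of 0.94. SLN and TRDN were most alike (0.99), and the lowest values were those of JSRP1. The groups share the array that stood apart and the split of hours by slide, and no p is given. Among 16210 other genes the pattern most like CACNA1S was that of CSRP3 (r = 0.998), followed by SCARNA11 and PDE4DIP (both 0.992). For RYR1 it was TNNT2 (0.997), then MYH2 and CEACAM16. For SLN it was DPYSL5 (0.998), then RRAGD and LINC01762, and DPYSL5 also came first for TRDN, before AFAP1L1 and SCN3B. CASQ2 was most like ENTREP1, TRIM54 and NCAM1, ATP2A2 most like IL17B, ANKRD1 and NMRK2, and ATP2A1 most like TSPAN33 (0.993), GDF1 and FGD4. ADGRA2 and IL2RG were among the 3 genes most like JPH1, CASQ1 was most like LGI4, ITM2C and LINC00644, and JSRP1 most like HBG1 (0.973), POLB and ANXA6. Between 216 and 387 genes had an r over 0.95 with each of 9 members, and 5 with JSRP1.

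Other genes of calcium handling were taken from 9 lists by role, 83 genes of which 75 were tested. With ZNF148 siRNA 29 were higher and 8 lower at 48 h in growth media (11.7% and 12.2% of all genes), 29 and 9 at 96 h (12.3% and 12.4%), 32 and 10 at 48 h in differentiation media (15.1% and 17.3%) and 25 and 7 at 96 h (10.5% and 12.8%). The counts of lower genes are near these shares or below them. At 24 h 1 was higher and 2 were lower (2.46% and 3.08% of all genes). The following values are log2 changes at 96 h in growth media. Among partners of the voltage sensor, 5 of 8 were higher, led by the subunits CACNG1 (6.51), CACNB1 (5.68) and CACNG6 (5.53) and by STAC3 (3.20), which the sensor needs to reach the membrane and work. Of the junction and membrane genes 8 of 11 were higher. SYPL2 rose by 5.07, the potassium channels of the reticulum TMEM38A and TMEM38B by 4.64 and 3.51, and JPH2 by 3.54. Inside the reticulum 2 of 7 rose: HRC by 6.59 and SRL, a sarcoplasmic calcium binder, at least 1280-fold. General chaperones of that list, CALR (-0.23), CANX (-0.33) and HSPA5 (-0.14), stayed under 2-fold.

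Elsewhere the lists were mixed. For release, store-operated entry and mitochondrial uptake the counts of 1 higher gene are near the 12.3% of all genes, and the 1 to 3 lower genes of each short list, beside 12.4% of all genes, are no result about these lists. Among other release channels and regulators 1 of 13 was higher and 3 were lower, the inositol trisphosphate receptors ITPR3 (-1.71) and ITPR1 (-1.55) and CALM2 (-1.49). In the cytosol 4 of 7 were higher and 1 lower, led by the buffer PVALB (5.88), then CAMK2B (2.40) and CAMK2A (at least 2.13-fold), with the calcineurin subunit PPP3CA at -1.10. Of the other calcium pumps and SERCA regulators, the exchanger SLC8A3 rose by 1.28, while the plasma membrane pump ATP2B4 (-1.67) and the exchanger SLC8A1 (-1.42) fell. ARLN (0.40), ATP2A3 (-0.60) and ATP2B1 (-0.56) were not called. In differentiation media ATP2A3, a SERCA pump of blood and endothelial cells, went the other way from the members: at 48 h it stood at 10.33 (SD 0.332, n = 3) with nontargeting siRNA and at 4.20 (SD 0.296, n = 3) with ZNF148 siRNA, a fall of 6.13 (adjusted p = 1.81e-13). For store-operated entry 1 of 8 was higher (TRPC4, 1.30) and 2 were lower (ORAI3 at -1.36 and TRPC1 at -1.06). For mitochondrial uptake MCU rose by 1.56 and MICU3 fell by 1.32 among 6. Of 9 excitability genes 6 were higher, among them the sodium pump subunit ATP1B4 (at least 72.9-fold) and the sodium channel gene SCN4A (at least 3.32-fold).

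**Figure D5:**
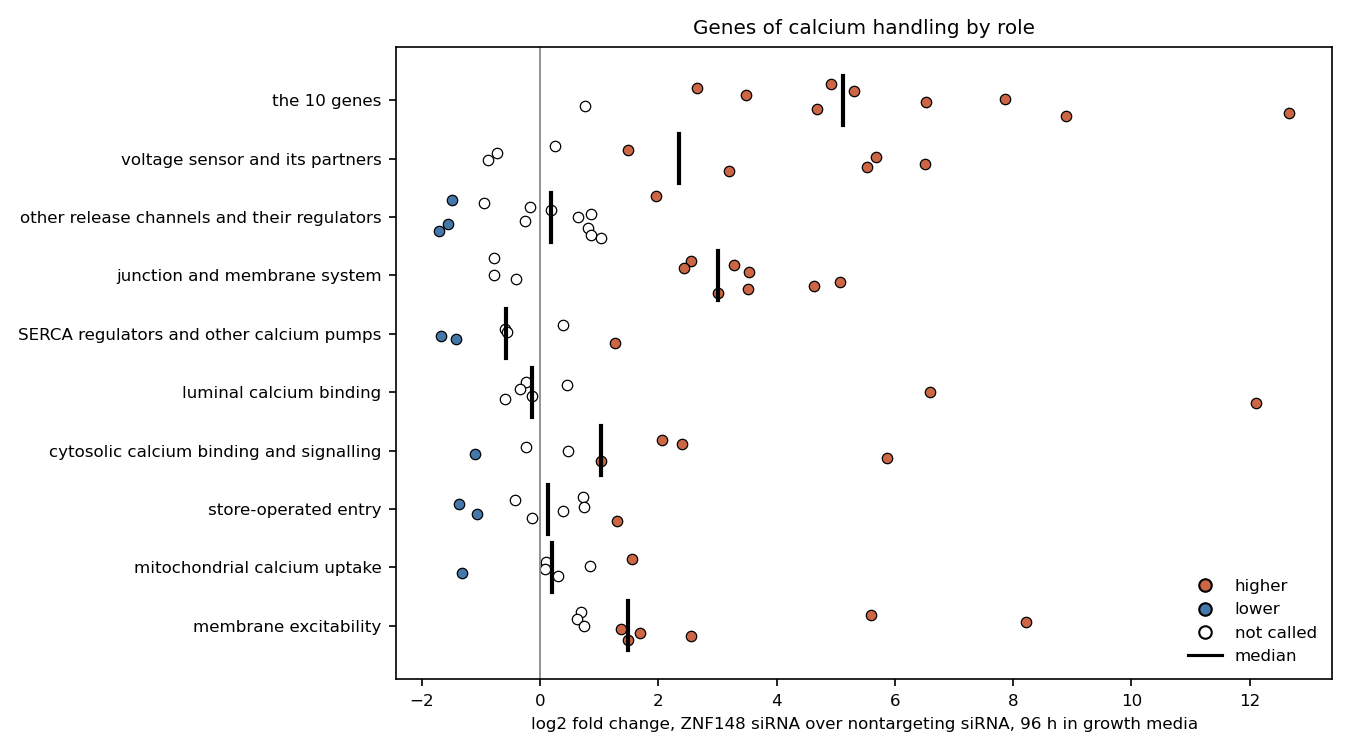
Log2 fold change with ZNF148 siRNA at 96 h in growth media (x axis) for the 10 genes and for 9 lists of calcium handling genes by role (y axis), each point a gene, filled where called higher or lower, with bars at medians. The medians are 5.12 for the 10 genes, 3.01 for junction and membrane genes, 2.35 for voltage sensor partners and -0.58 for SERCA regulators and other pumps.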

How the data were processed

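RNA of 29 cultures was hybridized to Agilent 1-colour human arrays. The authors deposited scanner files of linear intensity, background-subtracted by Feature Extraction 10.7.3.1, with flags of other kinds per spot (well above background, outlier), and a matrix of quantile-normalized log2 values. Intensities were recomputed here: control and outlier spots were left out, log2 values were averaged by probe and then quantile-normalized over all 29 arrays. The tests covered the 38714 probes that 2 or more arrays measured well above background, and a gene stood for its tested probe with the highest mean signal. The choice of members names the deposited log2 matrix as its source of values. Here the scanner files gave the main values and the matrix an alternative. The depth of an array is not a read count, and the number of arrays limits the precision.

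Probes were named through the RefSeq accession of each probe (31104 probes). The headers of the files name no single genome build, so no array coordinates are given. Groups came from the labels, and replicate numbers from the sample titles, which for ZNF148 siRNA at 48 h in growth media differ from the descriptions.

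One limma fit (version 3.58.1, R 4.3.3, data.table in version 1.17.8) held 10 group means and gave 16 comparisons, with Benjamini-Hochberg adjustment over all tested probes. A probe was called at an adjusted p under 0.05 and more than 2-fold. Where a probe was well above background on no array of a group, a fold is a lower bound, taken as the mean of the bright group against the higher, per array, of the dim probe's signal and the lowest signal well above background. The labels call the samples biological replicates of 1 cell line, so p-values measure the spread between such cultures. Confidence intervals (95%) come from the same fit.

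The members and lists were chosen with earlier results of these data known. All 10 members were named, and of the wider lists the 4 called genes with the largest change at 96 h in growth media, every tested SERCA regulator and the markers. Genes named outside this rule (CALR, CANX and HSPA5) were chosen after their values were seen. The 3 genes most like each member by Pearson r were named. Some genes that these rules cover are not reported here. MRLN, STRIT1 and SMTN were not analysed here. The fit was tested on simulated data for 38157 probes. With 100 probes changed by a log2 change of 4, it recovered 95% at 24 h and 96% at 96 h in growth media. With a change of 2 it recovered 74% and 70%. The simulated noise was normal around each probe's mean, with no array that stood apart and no background floor. These shares therefore do not show how the fit handles either. Alternatives covered normalization, background correction, the deposited matrix, the filter, the arrays in the fit, the variance model, array weights, replicate and slide blocks, the probe rule, the methods' t-test and leaving out each array.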

Additional observations from a re-analysis of the deposited data

Results flagged for a closer look

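In all 10 genes the ZNF148 siRNA effect seen in growth media was not the same at 24 as at 48 h, by the test of the difference of effects in the limma fit. The difference on the log2 scale was 7.88 for SLN, 7.20 for CASQ2, 5.78 for JPH1, 4.99 for TRDN and 4.57 for CACNA1S. It was 4.45 for ATP2A1, 3.18 for RYR1, 2.39 for CASQ1, 1.66 for JSRP1 and 1.51 for ATP2A2. SLN, CASQ2, TRDN, CACNA1S and CASQ1 were well above background on none of the 6 arrays at 24 h, so the effect then, and with it the exact size of the difference, is not measured for them. RYR1 was well above background at 24 h only on 1 ZNF148 siRNA array and JPH1 only on 1 nontargeting array, so the size is uncertain for these genes too. The arrays of 24 h had their own slide and came from subconfluent cells, so hour, slide and confluence cannot be told apart. Between the media, the effect on TRDN at 48 h differed by 3.93 and that on ATP2A1 at 96 h by -4.64. Leaving out the nontargeting array that stood apart, the first was 2.35, and 5 further genes differed the other way. TRDN was well above background on no nontargeting array at 48 h in differentiation media, so the size of its difference is not measured.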

How the results depend on the processing

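Under settings other than leaving out an array, 2163 of 2180 values of the 10 genes kept their direction, and none of the 17 that turned was called. With an array left out 1212 of 1230 did. None of the other 18 was called with all arrays, and 4 were called with the array left out, CASQ2 and JPH1 for the media with nontargeting siRNA and for the difference between media, both at 48 h and without the array that stood apart. Of the counts of called genes, 178 stayed within 1.5 times of the value given and 40 did not. The causes were not tested.

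With array weights the count was 1 at 24 h, 4 for differentiation over growth media with nontargeting siRNA at 48 h and 9 at 96 h, 2 with ZNF148 siRNA at 96 h, 7 for 96 over 48 h with nontargeting siRNA, 1 for 96 over 48 h with ZNF148 siRNA, and 4 for the difference between media of the ZNF148 siRNA effects at either hour. In a fit of the arrays of each comparison alone it was 5 at 48 h in growth media, 5 for the difference between 48 and 24 h, 0 and 5 for the difference between media at 48 and 96 h, 2 for the media with ZNF148 siRNA at either hour, 1 with nontargeting siRNA at 48 h, and 3 for 96 over 48 h with ZNF148 siRNA. The methods' t-test gave 3 at 48 h in growth media after adjustment, 1 at 24 h without, and 3 for 96 over 48 h with ZNF148 siRNA, 2 for the media with ZNF148 siRNA at 96 h and 1 with nontargeting siRNA at 48 h either way, and 2 for the media with ZNF148 siRNA at 48 h without adjustment. With no fold limit it was 1 at 24 h, 1 for 96 over 48 h with ZNF148 siRNA and 3 for the difference between media at 48 h. Normexp gave 1, 2 and 1 for 96 over 48 h with ZNF148 siRNA, the difference between media at 96 h and the media with nontargeting siRNA at 48 h. Averaging probes gave 2 and the 75th percentile scaling 2 for the difference between media at 48 h, and that scaling 1 for the media with nontargeting siRNA at 48 h. The media with ZNF148 siRNA at 48 h gave 0 with no filter, that scaling, the slide block, the trend and robust variance, the deposited matrix and the replicate block. Normexp ended the CASQ1 calls at 48 h in growth media (0.59), for the difference between 48 and 24 h (0.69) and for knockdown in growth media against nontargeting siRNA in differentiation media (0.51 at 48 h and 0.87 at 96 h). Same-numbered samples did not deviate together (37 pairs, r from -0.145 to 0.124, 1 over 0.1), and the replicate block changed no other count by over 1.5 times.

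Values that turned were, with array weights, CASQ2 -1.25 and JPH1 -1.14 for the difference between media at 48 h and CASQ2 1.62, CACNA1S 0.0040 and JPH1 1.27 for the media with nontargeting siRNA at 48 h. With normexp they were CASQ2 -0.0553 at 24 h and CASQ1 0.47 and TRDN 0.22 for the difference between media at 96 h. With 75th percentile scaling they were CASQ1 0.0914, CACNA1S 0.0184 and TRDN 0.29 at 24 h, JSRP1 0.0396 for the difference between media at 96 h and JPH1 0.033 for the media with nontargeting siRNA at 48 h. ATP2A2 gave 0.031 for 96 over 48 h with ZNF148 siRNA with probes averaged and 0.0263 with the slide block, which also gave JSRP1 0.0619 for the difference between media at 96 h and CASQ2 -0.12 for the media with ZNF148 siRNA at 96 h.

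Leaving out each array in turn kept the counts at 10 to 10, 9 to 9 and 9 to 9 for ZNF148 siRNA at 48 and 96 h in growth media and 48 h in differentiation media. They ran from 0 to 1 at 24 h, from 7 to 8 at 96 h in differentiation media, from 1 to 5 and from 4 to 9 for the media with nontargeting siRNA, from 0 to 2 with ZNF148 siRNA at either hour, from 0 to 2 and from 2 to 7 for 96 over 48 h with ZNF148 and nontargeting siRNA, from 9 to 9 and from 7 to 8 for knockdown in growth media against nontargeting siRNA in differentiation media, from 9 to 10 for the difference between 48 and 24 h, and from 1 to 6 and from 0 to 6 for the difference between media. Directions turned at 24 h for CASQ1 (-0.55 to 0.0749), TRDN (-0.15 to 0.0136) and JPH1 (-0.0728 to 0.50). For the media with nontargeting siRNA at 48 h they turned for SLN (-3.57 to 1.00), ATP2A1 (-0.0312 to 3.40), ATP2A2 (-0.59 to 0.23), CASQ2 (-1.59 to 2.79), CACNA1S (-1.63 to 0.30) and JPH1 (-1.26 to 1.97). For the difference between media they turned at 48 h for SLN (-0.45 to 4.12), ATP2A1 (-3.14 to 0.29), CASQ2 (-2.42 to 1.96), CACNA1S (-0.0297 to 1.91) and JPH1 (-1.84 to 1.39), and at 96 h for CASQ1 (-1.27 to 0.39) and JSRP1 (-0.23 to 0.10).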

Other observations

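ATP2A3 moved in differentiation media unlike the other SERCA pump genes. With nontargeting siRNA it rose by 4.36 from growth to differentiation media at 48 h (limma, adjusted p = 1.23e-10) and differed by 0.10 at 96 h. With ZNF148 siRNA it fell by 6.13 at 48 h and by 2.78 at 96 h in differentiation media (adjusted p = 9.07e-08), and by 1.12 at 48 h in growth media. Its probe was well above background on 2 of 3 and on 1 of 3 ZNF148 siRNA arrays in differentiation media.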
